A study of Mus musculus with 6 samples.

Results

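The fibroblast growth factor (FGF) system was examined in immortalized cells derived from mouse embryo brain and labelled neural precursor-like, from its ligands and receptors to the proteins that damp or carry the signal inside the cell. The genes were taken from the array's annotation by symbol: every Fgf gene, the receptors Fgfr1 to Fgfr4 and Fgfrl1, the Sprouty genes Spry1 to Spry4, the Spred genes Spred1 to Spred3, the phosphatases Dusp4 to Dusp6 and the transcription factors Etv1, Etv4 and Etv5. This gave 40 genes among the 19938 tested. Both groups of cells came from brains of C57BL/6J embryos at day 13.5, were immortalized, and then grew in serum-supplemented RPMI medium. In the knock-out group both copies of Lgi1, which encodes a secreted neuronal protein, were deleted, and the other group was wild type for Lgi1. There were 3 knock-out and 3 wild-type samples, each on its own Affymetrix Mouse Gene 1.0 ST array, and all values are deposited log2 signals. The sample titles call the 3 replicates of each genotype biological. The number of embryos or cell lines behind the 3 arrays of a genotype is not given in the labels. The p-values therefore reflect only how these samples vary, and that variation may still be technical.

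FGF ligands bind receptor tyrosine kinases at the cell surface together with heparan sulfate, and the activated receptors drive the RAS and ERK kinase cascade. In the embryonic brain, FGFs pattern the tissue and keep neural precursors dividing, and they are added to cultures for that purpose. The pathway limits itself: ERK activity raises the RNA of Sprouty and Spred proteins, of ERK phosphatases such as Dusp6 and of the ETS transcription factors Etv4 and Etv5, so these genes are widely used as readouts of FGF signalling.

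The promoters of 4 genes are shown because these genes had the largest rise and the largest fall among ligands (Fgf18 and Fgf7) and among feedback inhibitors (Spry2 and Dusp6). Each sequence runs 5′ to 3′ on the gene's strand over 300 bases around the annotated start and was taken from RefSeq, build GRCm38.p6. Capitals mark matches on either strand to the ETS motif CCGGAA, the GC box GGGCGG, the TATA box TATAAA or the AP-1 motif TGANTCA.
Fgf18 (chr11:33147351-33147650, minus strand): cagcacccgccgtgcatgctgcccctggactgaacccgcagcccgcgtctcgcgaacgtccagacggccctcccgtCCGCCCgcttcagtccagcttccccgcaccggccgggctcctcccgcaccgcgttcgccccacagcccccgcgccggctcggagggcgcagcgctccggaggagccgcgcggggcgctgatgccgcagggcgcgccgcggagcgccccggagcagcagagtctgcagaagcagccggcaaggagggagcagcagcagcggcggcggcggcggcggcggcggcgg
Fgf7 (chr2:126034408-126034707, plus strand): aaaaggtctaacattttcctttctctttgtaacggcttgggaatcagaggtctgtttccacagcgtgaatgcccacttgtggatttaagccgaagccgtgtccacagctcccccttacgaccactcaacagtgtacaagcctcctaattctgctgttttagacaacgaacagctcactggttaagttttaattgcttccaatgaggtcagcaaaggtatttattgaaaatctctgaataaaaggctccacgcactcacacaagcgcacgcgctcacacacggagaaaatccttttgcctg
Spry2 (chr14:105896770-105897069, minus strand): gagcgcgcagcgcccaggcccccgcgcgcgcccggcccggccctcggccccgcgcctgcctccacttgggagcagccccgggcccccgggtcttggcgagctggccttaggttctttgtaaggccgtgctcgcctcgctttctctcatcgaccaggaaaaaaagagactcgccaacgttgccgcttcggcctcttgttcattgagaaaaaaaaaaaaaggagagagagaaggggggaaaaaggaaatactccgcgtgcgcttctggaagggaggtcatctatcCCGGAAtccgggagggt
Dusp6 (chr10:99262981-99263280, plus strand): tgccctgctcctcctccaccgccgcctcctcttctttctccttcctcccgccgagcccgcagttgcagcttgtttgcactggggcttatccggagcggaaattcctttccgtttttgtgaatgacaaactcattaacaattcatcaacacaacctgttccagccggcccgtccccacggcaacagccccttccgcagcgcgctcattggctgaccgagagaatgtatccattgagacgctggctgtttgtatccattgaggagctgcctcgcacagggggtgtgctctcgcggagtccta
The Fgf18 window held 47 CG dinucleotides, more than 98.6% of the 32851 promoter windows in the table. The Fgf7 window held 11, that of Spry2 28 and that of Dusp6 19, against a median of 7 over all windows. The Fgf18 window had 1 GC box, a motif found in 35.7% of all windows, and the Spry2 window had 1 ETS motif, found in 14.9%. In the Fgf7 and Dusp6 windows none of the 4 sets of letters occurred; the TATA box letters occurred in 13.6% and the AP-1 letters in 7.81% of all windows. A promoter was listed for 29 of the 40 genes. These 29 genes had 38 windows, and a gene was counted if any of its windows matched. The ETS motif stood in the windows of 5 of the 29 genes and the GC box in those of 20. These counts of genes are not comparable with the shares of single windows above. The matches describe letters and not binding sites.

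The genotypes were compared with limma, and p-values were adjusted over all genes by the Benjamini-Hochberg method. The words changed, rose and fell are used where the adjusted p was under 0.05. Of the 40 FGF system genes, 16 changed, where 31.6% of all genes tested did. Of these, 11 were higher in knock-out cells (27.5%), against 14.0% of all genes, and 5 were lower (12.5%), against 17.6% of all genes. At least 2-fold changes were found for 8 of the 40, where 5.32% of all genes changed as much, with 3 higher (Fgf18, Etv5 and Spry2; 3.05% of all genes) and 5 lower (Fgf7, Fgf13, Dusp6, Spry3 and Fgfr3; 2.27% of all genes). Etv5 reached 2-fold on 1 of its 2 probe sets, and with the second probe set, described below, 7 genes changed at least 2-fold, 2 of them higher. The median log2 fold change, knock-out minus wild type, was 0.03 over the 40 genes and −0.01 over all genes. The knock-out and wild-type arrays did not overlap for 20 of the 40 genes, the 16 that changed among them, against 42.3% of all genes. No set test was run, so the difference between these shares and those of all genes was not tested.

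**Figure D1:**
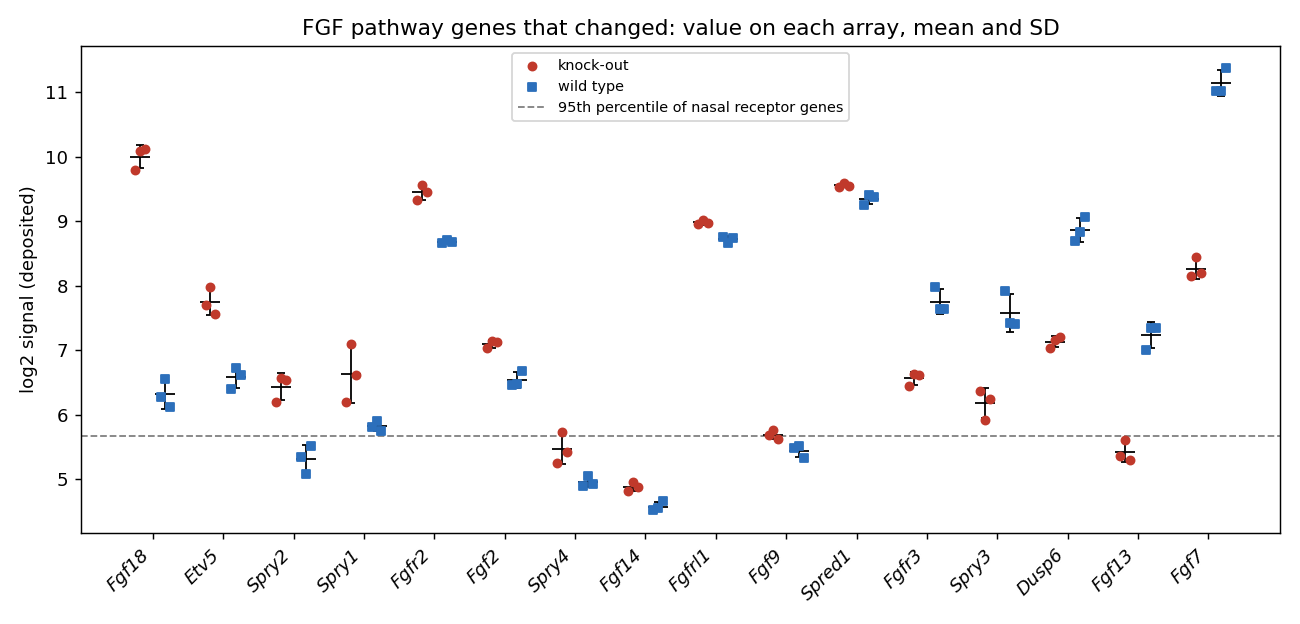
Deposited log2 signal on each array for the 16 FGF system genes that changed, ordered from the largest rise to the largest fall; circles are knock-out arrays, squares wild-type arrays, and black marks the mean and SD of 3 arrays. Within each gene the 3 knock-out points lie on one side of the 3 wild-type points, and the dashed line marks the background level of 5.67.

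Many of the genes gave no signal that could be told from background. The background level was set at 5.67, the 95th percentile of the mean log2 signals of 1178 receptor genes of the olfactory and vomeronasal epithelium. The means of both genotypes lay at or under that level for 19 of the 40 genes, and above it in both for 18. Fgf9 and Spry2 exceeded it in knock-out cells alone and Fgf13 in wild-type cells alone. Of the 21 FGF system genes above it in at least 1 genotype, 14 changed, 9 of them higher and 5 lower. Among all 11676 genes above it in at least 1 genotype, 5804 changed, 2565 of them higher and 3239 lower. The difference between these shares was not tested. Where one genotype lies at background, the fold change is limited by it. Signals of different probe sets have no common scale, so each gene is compared only with itself between genotypes.

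Lgi1 itself lay at background, with 4.53, 4.57 and 4.54 on the knock-out arrays, against 4.61, 4.75 and 4.94 on the wild-type arrays (log2 fold change −0.22, SE 0.08, limma adjusted p = 0.075). Its signal therefore cannot test the genotype labels. Of 8 markers of neural precursors, 4 were lower in knock-out cells and none was higher, adjusted or at an unadjusted p under 0.05. Sox2, which maintains neural progenitors, averaged 5.35 ± 0.17 in knock-out cells, within the background range, against 11.26 ± 0.11 in wild-type cells (SD, n = 3 each). Fabp7, a lipid-binding protein of radial glia, averaged 5.91 ± 0.19 in knock-out and 9.12 ± 0.15 in wild-type cells. Of the 8 markers, 4 were above background in knock-out cells and 7 in wild-type cells. The sum of the 8 log2 signals was 50.3 to 50.5 on knock-out arrays, against 62.7 to 63.2 on wild-type arrays. These markers thus matched the labelled cell type less well in knock-out than in wild-type cells. Not all were lost: Nes, which fell, still averaged 8.72 in knock-out cells, against 10.73 in wild-type cells. Msi1 did not pass, with means of 8.17 in knock-out and 7.85 in wild-type cells. Nes and Msi1 were named after their values were seen. In these bulk samples, fewer cells of a type and less RNA per cell cannot be told apart.

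Markers of several other cell types moved with genotype as well. Of 10 markers of fibroblasts and meninges, 9 were higher in knock-out cells, and all 10 were above background there, against 7 in wild-type cells. The sum of their log2 signals was 98.6 to 99.5 on knock-out arrays, against 71.6 to 72.0 on wild-type arrays, and the largest rises were those of the matrix protein Postn (log2 fold change 5.77) and of Col1a2, a chain of type I collagen (5.30). Of 6 markers of pericytes and smooth muscle, 4 were higher, led by the actin-binding calponin Cnn1 (4.65) and Rgs5 (1.29). All 6 were above background in knock-out cells and 5 in wild-type cells. Their sums were 64.9 to 65.3 on knock-out arrays, against 57.0 to 58.1 on wild-type arrays. Of 6 endothelial markers, the transcription factor Erg (means 9.97 in knock-out and 5.37 in wild-type cells) and the receptor kinase Tek (3.14) were higher and Kdr (−0.44) was lower, with 2 above background in knock-out cells and none in wild-type cells, and sums of 36.9 to 37.5 on knock-out arrays, against 29.8 to 30.6 on wild-type arrays. Of 6 astrocyte markers, the water channel Aqp4 (−2.10) and the glutamate transporter Slc1a3 (−0.41) were lower and Slc1a2 (0.49) was higher. The means of Slc1a2 were under the background level in both genotypes, at 5.48 in knock-out and 4.99 in wild-type cells. Of the 6, 1 was above background in knock-out cells and 2 in wild-type cells. Their sums were 33.4 to 33.7 on knock-out arrays, against 35.4 to 35.5 on wild-type arrays. The remaining lists moved less: 1 of 7 neuron markers rose (Map2, 0.90), 1 of 5 oligodendrocyte lineage markers rose (Cspg4, 0.82) and 1 fell (Mbp, −0.87), and 1 of 6 microglia markers fell (Trem2, −0.23). Genes of the sex chromosomes also separated the genotypes on every array. Xist was above background in knock-out cells alone, and 3 genes of chromosome Y were above it in wild-type cells alone. Xist averaged 12.44 in knock-out and 4.64 in wild-type cells. Eif2s3y and Uty, of chromosome Y, had log2 fold changes of −5.51 and −5.21, and Kdm5d, of the same chromosome, averaged 5.24 in knock-out and 9.03 in wild-type cells. The sex chromosome pattern is fully confounded with Lgi1 genotype in this design, so the parts of the 2 cannot be told apart. All these differences move with every result below, and their part in the results was not tested.

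Among the ligands, a single gene rose strongly and a single secreted ligand fell strongly. Of the 22 Fgf genes, 4 were higher in knock-out cells, 2 were lower and 16 did not pass. The share called was 27.3%, close to the 31.6% of all genes, with 18.2% higher and 9.09% lower, against 14.0% and 17.6% of all genes. Fgf18, a ligand of the FGF8 subfamily known from the growth of the skeleton and the lung, had 9.79, 10.08 and 10.12 on the knock-out arrays, against 6.27, 6.55 and 6.11 on the wild-type arrays. The groups were more than 3 log2 units apart, far beyond the SD of 0.18 in knock-out and 0.22 in wild-type cells. The log2 fold change was 3.69 (SE 0.12, limma adjusted p = 4.7e-09), or 12.9-fold. Its subfamily partners Fgf8 and Fgf17, which act at the boundary of midbrain and hindbrain, were near background in both genotypes. Fgf8 averaged 5.67 ± 0.10 in knock-out and 5.64 ± 0.13 in wild-type cells, and Fgf17 5.54 ± 0.19 in knock-out and 5.43 ± 0.10 in wild-type cells (SD, n = 3 each).

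Fgf7, or keratinocyte growth factor, is made by mesenchymal cells and acts on epithelia. It had 8.14, 8.44 and 8.19 on the knock-out arrays, against 11.02, 11.03 and 11.38 on the wild-type arrays. It remained above background in both genotypes, and the groups did not overlap. The log2 fold change was −2.88 (SE 0.11, limma adjusted p = 1.7e-08), or 7.38-fold lower in knock-out cells. Its relatives Fgf3, Fgf10 and Fgf22 did not pass, with log2 fold changes between −0.09 (Fgf22) and 0.06 (Fgf10). Fgf22, a ligand of synapse formation, had 5.65, 5.73 and 5.66 in knock-out cells, against 5.81, 5.74 and 5.75 in wild-type cells. Its groups were separated by a margin close to 0, and the adjusted p was 0.36 (limma).

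Fgf2, the basic FGF used to expand neural precursors in culture, rose more modestly. Its values were 7.03, 7.14 and 7.12 on the knock-out arrays, against 6.46, 6.47 and 6.68 on the wild-type arrays. Every knock-out value exceeded every wild-type value, with a log2 fold change of 0.56 (SE 0.08, limma adjusted p = 0.00025). Fgf1, the other member of its subfamily, lay at background on all 6 arrays, between 4.73 and 4.87. Fgf9, a ligand of neurons and mesenchyme, passed with the smallest margin among the ligands. It had 5.68, 5.77 and 5.62 in knock-out cells, against 5.48, 5.51 and 5.32 in wild-type cells (log2 fold change 0.25, SE 0.07, limma adjusted p = 0.023). The call of Fgf9 was lost without knock-out replicate 1, knock-out replicate 2 or wild-type replicate 3 (adjusted p = 0.055, 0.091 and 0.081), with arrays centred on their medians (adjusted p = 0.057) and without moderated variances (adjusted p = 0.091). Both genotypes were close to background for it.

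The remaining secreted ligands gave no call. The 3 genes of the FGF4 subfamily (Fgf4, Fgf5 and Fgf6) and Fgf16 and Fgf20 of the FGF9 subfamily lay at background in both genotypes, and none of them had an unadjusted p under 0.05. Among the endocrine FGFs, which travel in blood and need Klotho proteins as co-receptors, Fgf15 was at background. Fgf21, a hormone of the liver, averaged 6.07 ± 0.07 in knock-out and 6.02 ± 0.12 in wild-type cells (SD, n = 3 each; 95% interval of the log2 difference −0.12 to 0.22). Fgf23, a bone hormone of phosphate balance, averaged 5.70 ± 0.06 in knock-out and 5.71 ± 0.04 in wild-type cells. None of the 3 endocrine genes had an unadjusted p under 0.05.

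Fgf11 to Fgf14 form a separate branch of proteins that are not secreted and act on voltage-gated sodium channels inside the cell. Fgf13, which also binds microtubules, had 5.35, 5.60 and 5.30 on the knock-out arrays, against 7.005, 7.35 and 7.35 on the wild-type arrays. All knock-out values lay under the background level and all wild-type values above it. Its log2 fold change was −1.81 (SE 0.11, limma adjusted p = 5.9e-07). Fgf14 moved the other way within the background range, with 4.81, 4.95 and 4.87 in knock-out cells, against 4.52, 4.54 and 4.65 in wild-type cells (log2 fold change 0.31, SE 0.07, limma adjusted p = 0.0051). Fgf11 had 5.09, 5.11 and 5.04 in knock-out cells, against 5.33, 5.15 and 5.21 in wild-type cells. Its groups did not overlap either, but it did not pass after adjustment (log2 fold change −0.15, limma adjusted p = 0.13). Fgf12 averaged 4.62 in knock-out and 4.66 in wild-type cells, both at background.

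**Figure D2:**
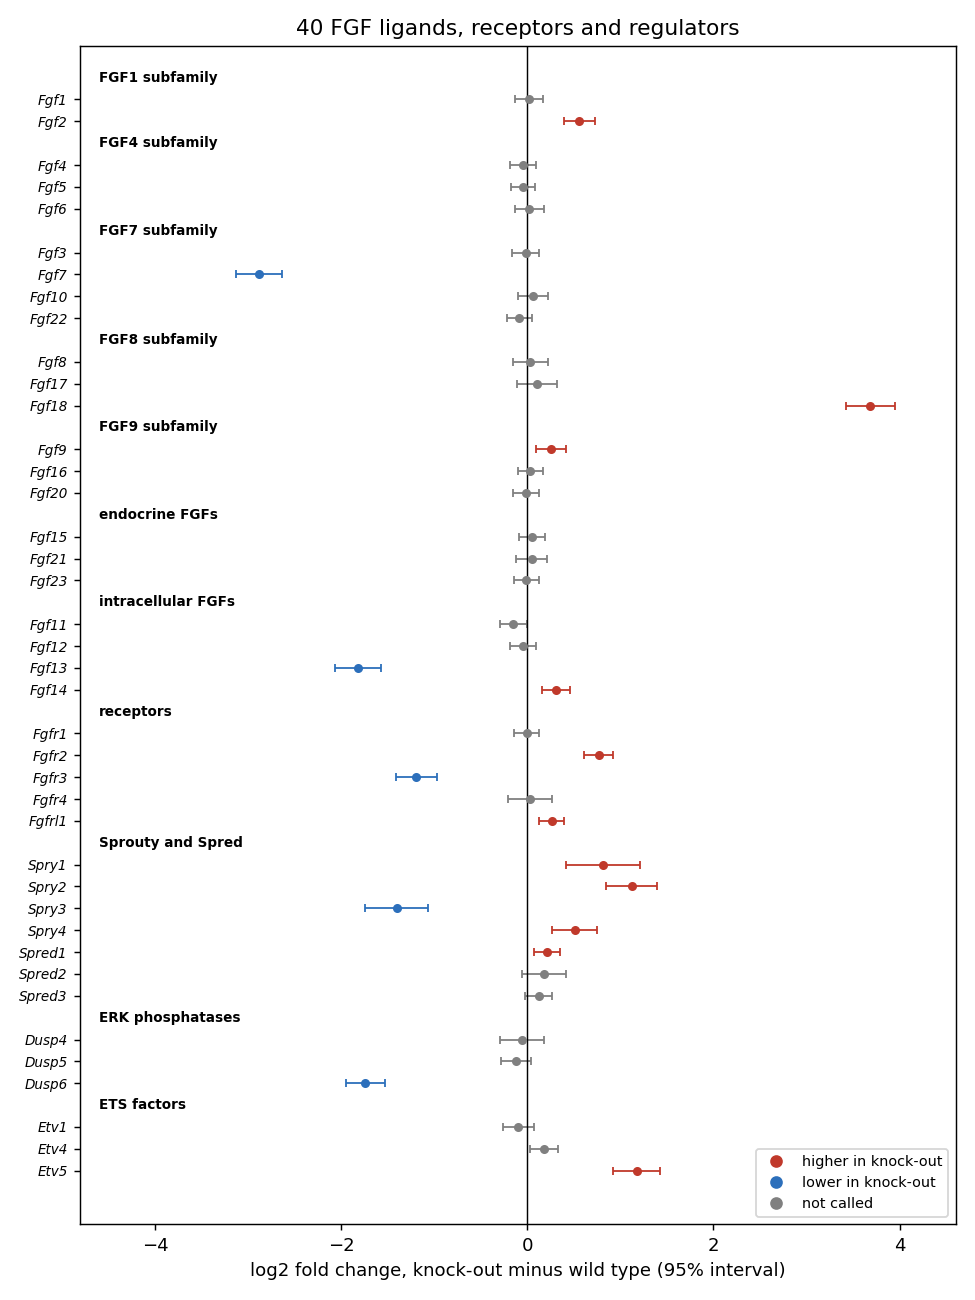
Log2 fold change, knock-out minus wild type, with its 95% interval from limma for all 40 FGF system genes, grouped by role (red: higher in knock-out, blue: lower, grey: not called). Fgf18 at 3.69 and Fgf7 at −2.88 are farthest from 0, and the 24 genes without a call lie between −0.15 and 0.18.

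The receptors moved in different directions. Fgfr1, which carries FGF signals in neural precursors and in many mesenchymal cells, did not differ by a measurable amount. It had 10.47, 10.49 and 10.47 on the knock-out arrays, against 10.48, 10.42 and 10.55 on the wild-type arrays. The groups overlapped, and the 95% interval of the log2 difference ran from −0.14 to 0.13.

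Fgfr2 had 9.33, 9.56 and 9.46 in knock-out cells, against 8.66, 8.71 and 8.68 in wild-type cells. Every knock-out array was higher, with a log2 fold change of 0.77 (SE 0.07, limma adjusted p = 1.5e-05). Fgfr2 is made in an epithelial splice form, which binds Fgf7, and a mesenchymal one, which does not, and 1 value per gene does not separate them. Fgfr3, a receptor of radial glia and astrocytes in brain and of growth plate cartilage, had 6.44, 6.64 and 6.61 in knock-out cells, against 7.98, 7.64 and 7.64 in wild-type cells. The groups were about 1 log2 unit apart at their nearest arrays, and the log2 fold change was −1.19 (SE 0.10, limma adjusted p = 7.5e-06). Fgfr3 thus fell while Fgfr2 rose. Fgfr4 lay at background in both genotypes, with 5.07 ± 0.16 in knock-out and 5.04 ± 0.17 in wild-type cells (SD, n = 3 each). Fgfrl1, a receptor that binds FGFs but lacks the kinase, had 8.95, 9.02 and 8.97 in knock-out cells, against 8.76, 8.67 and 8.73 in wild-type cells. The arrays did not overlap, though the difference was small (log2 fold change 0.26, SE 0.06, limma adjusted p = 0.0066).

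The feedback genes did not move as one. Of the 13 Sprouty, Spred, ERK phosphatase and ETS factor genes, 5 were higher in knock-out cells, 2 were lower and 6 did not pass. That is 38.5% higher and 15.4% lower, where 14.0% of all genes were higher and 17.6% lower, so the share of falls was near that of all genes. The rises were those of Spry1, Spry2, Spry4, Spred1 and Etv5, and the falls those of Dusp6 and Spry3. Sprouty proteins inhibit the activation of RAS and ERK by receptor kinases. Spry2 had 6.20, 6.57 and 6.53 on the knock-out arrays, against 5.34, 5.08 and 5.51 on the wild-type arrays. It rose above background in knock-out cells, with a log2 fold change of 1.12 (SE 0.12, limma adjusted p = 5.7e-05). Spry1 had 6.19, 7.09 and 6.61 in knock-out cells, against 5.81, 5.90 and 5.74 in wild-type cells. The groups did not overlap, but its SD of 0.45 among knock-out arrays was larger than that of 99.9% of all genes. Its log2 fold change was 0.81 (SE 0.18, limma adjusted p = 0.0056), and the call was lost without moderated variances (adjusted p = 0.12).

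Spry4 had 5.25, 5.72 and 5.42 in knock-out cells, against 4.89, 5.04 and 4.93 in wild-type cells. The means of both genotypes were under the background level, although the arrays did not overlap (log2 fold change 0.51, SE 0.11, limma adjusted p = 0.0045; adjusted p = 0.087 without moderated variances). Spry3 went the opposite way to the other Sprouty genes. It had 6.36, 5.92 and 6.25 in knock-out cells, against 7.92, 7.42 and 7.40 in wild-type cells (log2 fold change −1.40, SE 0.15, limma adjusted p = 4.6e-05).

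The Spred proteins bind neurofibromin and restrain RAS. Spred1 had 9.53, 9.59 and 9.55 in knock-out cells, against 9.25, 9.40 and 9.38 in wild-type cells. The difference was small (log2 fold change 0.21, SE 0.06, limma adjusted p = 0.029). Its call was lost without any 1 of the 3 knock-out arrays (replicate 1, adjusted p = 0.057; replicate 2, 0.093; replicate 3, 0.064), without wild-type replicate 1 (adjusted p = 0.11), with arrays centred on their medians (adjusted p = 0.066) and without moderated variances (adjusted p = 0.055). Spred2 averaged 9.75 ± 0.06 in knock-out and 9.57 ± 0.24 in wild-type cells and Spred3 6.57 ± 0.08 in knock-out and 6.45 ± 0.03 in wild-type cells (SD, n = 3 each), and neither passed.

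Dusp6, a cytoplasmic phosphatase of ERK, had 7.03, 7.15 and 7.20 on the knock-out arrays, against 8.69, 8.84 and 9.07 on the wild-type arrays. The groups were well separated and above background, with a log2 fold change of −1.74 (SE 0.09, limma adjusted p = 2.6e-07), or 3.34-fold lower in knock-out cells. Dusp5, a nuclear ERK phosphatase, had 7.49, 7.43 and 7.33 in knock-out cells, against 7.54, 7.64 and 7.44 in wild-type cells, and the groups overlapped (log2 fold change −0.12, limma adjusted p = 0.26). Dusp4, a nuclear phosphatase of MAP kinases, was at background, with means of 5.20 in knock-out and 5.26 in wild-type cells. Dusp6 therefore fell in the same cells in which Spry1, Spry2 and Spry4 rose.

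The ETS factors Etv1, Etv4 and Etv5 are transcription factors of the PEA3 group. Etv5 had 7.70, 7.98 and 7.56 in knock-out cells, against 6.40, 6.72 and 6.61 in wild-type cells (log2 fold change 1.17, SE 0.11, limma adjusted p = 2.1e-05). Etv4 had 5.18, 5.15 and 4.98 in knock-out cells, against 4.92, 4.92 and 4.93 in wild-type cells. Its arrays did not overlap, but the values were at background and it did not pass (log2 fold change 0.18, SE 0.07, limma adjusted p = 0.071), except without knock-out replicate 3 (adjusted p = 0.023). Etv1 averaged 5.43 ± 0.05 in knock-out and 5.53 ± 0.11 in wild-type cells (SD, n = 3 each) and did not pass.

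Etv1, Etv5 and Spred2 each had 2 probe sets, of which the one with the higher mean was used above. The second probe set of Etv5 (10438626) had 5.66, 6.05 and 6.02 in knock-out cells, against 4.79, 5.08 and 4.95 in wild-type cells. It gave a log2 fold change of 0.97 (SE 0.11, limma adjusted p = 0.00012 over all probe sets with 1 symbol), so both probe sets annotated to Etv5 showed a rise. Affymetrix numbered its probe sets largely in the order of their positions, and the numbers of the 2 Etv5 probe sets fall in different places. Of the 20 nearest probe sets by number, 20 carried a gene of chromosome 10 for the one used (10363901), and 19 a gene of chromosome 16 for the second, and Etv5 lies on chromosome 16. Whether 10363901 measures Etv5 RNA was not tested. The wild-type mean of the second, 4.94, was under the background level. The second probe set of Etv1 (10406934) likewise stood among numbers of which 18 of 20 belonged to chromosome 13, while Etv1 lies on chromosome 12. The second probe set of Spred2 gave a log2 fold change of 0.29 (SE 0.10, limma adjusted p = 0.061), which did not pass either.

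**Figure D3:**
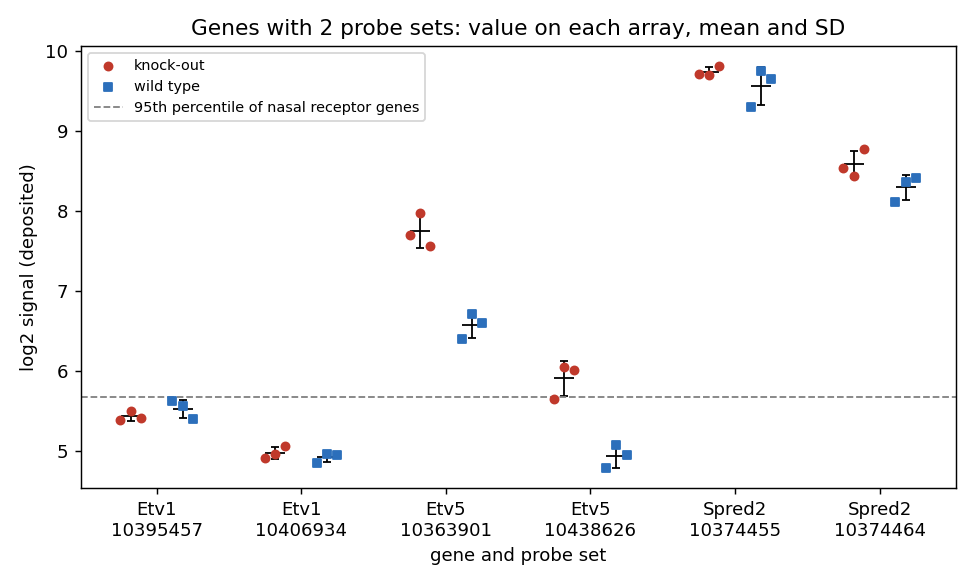
Deposited log2 signal on each array for the 2 probe sets of Etv1, Etv5 and Spred2, with circles for knock-out arrays, squares for wild-type arrays and black marks for the mean and SD of 3 arrays. Both Etv5 probe sets lie higher in knock-out cells, with means of 7.75 and 5.91 in knock-out and 6.57 and 4.94 in wild-type cells.

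The genes that changed shared part of their spread between replicates. Knock-out replicate 2 had the highest of the 3 knock-out values for 13 of the 16 genes, where it was the highest for 31.3% of all genes that changed. It was the highest for all 4 of Spry1, Spry2, Spry4 and Etv5. Without this array the log2 fold changes were 0.58 for Spry1, 1.06 for Spry2, 0.38 for Spry4 and 1.06 for Etv5, and all 4 still passed (limma adjusted p = 0.0055, 0.00037, 0.0082 and 5.2e-05). Leaving out any 1 of the 6 arrays kept the call and direction of 14 of the 16 genes, all but Fgf9 and Spred1.

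Some of the genes are neighbours in the genome. Fgf2 and Spry1, which both rose, are separated on chromosome 3 by 2 protein-coding genes, of which both were measured and neither passed. Spry4, which rose, and Fgf1, which did not pass, lie near each other on chromosome 18. Fgf3, Fgf4 and Fgf15 follow each other on chromosome 7 with no protein-coding gene between them, as do Fgf6 and Fgf23 on chromosome 6, and none of these 5 passed or had an unadjusted p under 0.05. Fgf13, Fgf16 and Spry3 are on chromosome X, and 2 of the 3 (Fgf13 and Spry3) fell. Of 739 genes of that chromosome, 86 rose (11.6%, against 14.0% of all genes) and 174 fell (23.5%, against 17.6% of all genes). Without genes of chromosomes X and Y, an alternative chosen after seeing the data, 11 FGF system genes rose and 3 fell.

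The co-receptors and extracellular partners of FGF signalling included strong rises. Of 9 genes, 4 were higher in knock-out cells, 1 was lower and 4 did not pass (55.6% called, against 31.6% of all genes). Flrt3, a membrane protein that binds FGF receptors and guides axons, averaged 9.21 ± 0.07 in knock-out and 6.66 ± 0.06 in wild-type cells (SD, n = 3 each; log2 fold change 2.55, limma adjusted p = 9.4e-10). Il17rd, a membrane antagonist of FGF signalling also called Sef, averaged 8.97 ± 0.17 in knock-out and 7.29 ± 0.10 in wild-type cells (log2 fold change 1.68, limma adjusted p = 2.5e-07). Il17rd had 2 probe sets, and these values are from the one with the higher mean. The other is not described here. Flrt2 rose by 1.19 on the log2 scale, and the cell adhesion molecule Ncam1, which can bind FGF receptors, fell by 0.84. The endocrine co-receptors Kl and Klb, named for their role after their values were seen, lay at background in both genotypes.

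Genes for heparan sulfate, the sugar chain that holds FGFs at their receptors, moved both ways. The list holds enzymes that build and edit the chain, and Hspg2, a core protein that carries it. Of 21 measured genes, 8 were higher in knock-out cells and 5 were lower, with a median log2 fold change of 0.02. Hspg2 (−0.29) was among the 5. Among the 8, Ndst4 and Hs3st3a1 had means under the background level in both genotypes. These 3 genes were named after their values were seen. These were 38.1% and 23.8% of the list, where all genes gave 14.0% higher and 17.6% lower. Hs6st2, a 6-O-sulfotransferase, averaged 10.16 ± 0.08 in knock-out and 6.88 ± 0.03 in wild-type cells (SD, n = 3 each; log2 fold change 3.28, limma adjusted p = 1.2e-10). Hs6st1, which adds sulfate at the same position, fell by 0.65 on the log2 scale. Hs6st2 lies on chromosome X. Heparanase (Hpse), which cuts the chains, fell by 1.38, and the N-deacetylase Ndst2 rose by 0.65.

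Adaptors and kinases between receptor and ERK showed small falls and no rise. Of 22 listed genes, 16 had a probe set with 1 symbol, and of these 7 were lower in knock-out cells, none was higher and 9 did not pass. The falls made up 43.8% of the 16, beside 17.6% of all genes, and 14.0% of all genes were higher. All 16 were above background in both genotypes. Among the 11676 genes above background in at least 1 genotype, 5804 changed, 2565 of them higher and 3239 lower. Set beside those genes, the share of the 16 that changed in either direction was not raised. By direction, 7 of the 16 were lower, against 3239 of the 11676, and none was higher, against 2565 of the 11676. These differences were not tested. At an unadjusted p under 0.05, 1 gene was higher (Frs3, chosen for naming after its value was seen, log2 0.19) and 8 were lower. The median log2 fold change of the 16 was −0.17. The largest falls were those of the RAS activator Sos2 (−0.57), Nras (−0.48), the kinase Map2k1 (−0.33) and the ubiquitin ligase Cbl (−0.26).

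Other genes known to respond to ERK, which many receptors besides those of FGF can drive, were divided. Of 14 genes, 3 were higher in knock-out cells, 3 were lower and 8 did not pass, or 21.4% in each direction beside 14.0% higher and 17.6% lower over all genes. Fosl1, a partner of JUN, averaged 6.41 ± 0.16 in knock-out and 7.82 ± 0.60 in wild-type cells (SD, n = 3 each; log2 fold change −1.41, limma adjusted p = 0.0011). Phlda1 fell by 0.91 and Junb by 0.63, and Jun rose by 0.67 on the log2 scale. These lists concern RNA levels, and no activity of the pathway was measured.

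**Figure D4:**
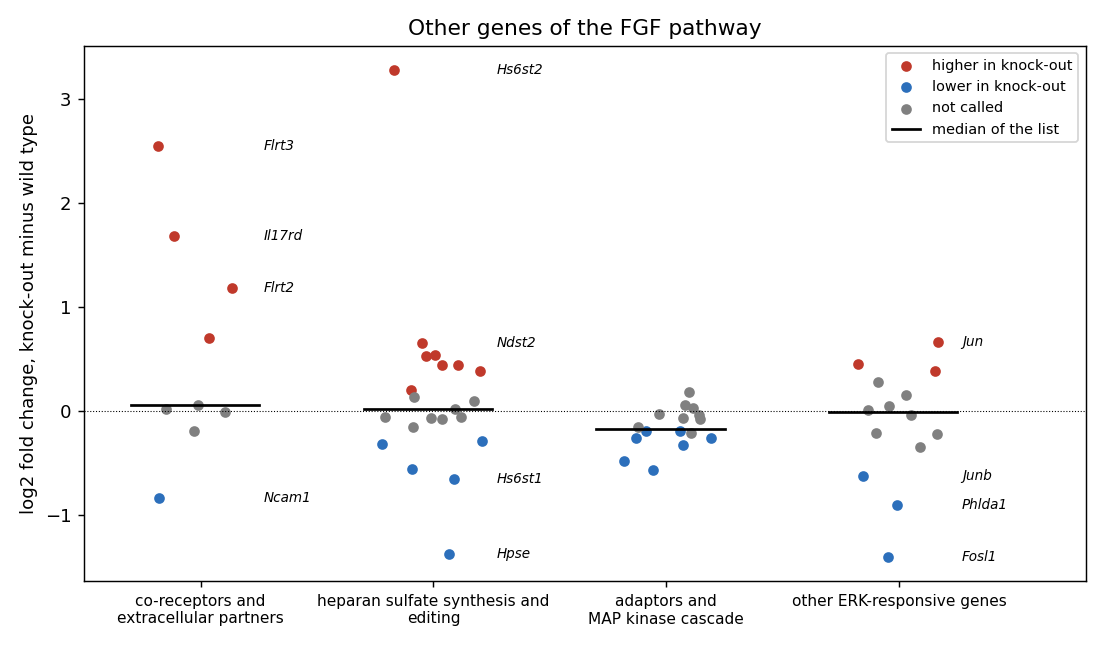
Log2 fold change, knock-out minus wild type, of each measured gene in 4 further lists of the FGF pathway (1 point per gene; red: higher in knock-out, blue: lower, grey: not called), with the list's median as a bar. Hs6st2 at 3.28 and Flrt3 at 2.55 stand highest, and the adaptors and kinases have no red point.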

How the data were processed

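The authors deposited a table of log2 values, a scale inferred from their range. The submitters' processing notes name Partek, and how background, normalization and probes were handled before deposit is not stated there or in the labels. The median log2 value was 6.36 to 6.41 on the 6 arrays, and no further scaling was applied. Of 35556 probe sets, 21789 had 1 gene symbol in GEO's platform annotation, 1621 several and 12146 none; 21698 matched the RefSeq gene table (GRCm38.p6) by gene ID. The probe set with the highest mean was kept per gene. No filter on low values was applied; 31 of the 40 genes lay above the 25th percentile of mean signal.

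Genotypes came from the sample titles. limma 3.58.1 in R 4.3.3 compared knock-out with wild type without a block, and SEs and 95% intervals are moderated. The number of arrays limits the precision. Simulated data for this comparison with 19938 genes and 50 changed at each size gave 76% recovered at 0.5 and 94% at 1 on the log2 scale. Far fewer genes were changed there than the 6296 that passed in the real data. Adjustment over all genes depends on that number, so these shares do not measure the recovery in the real comparison. Samples of the same replicate number deviated together (correlation 0.19 to 0.29 across genes, against −0.185 to −0.0047 for different numbers). The sample titles do not say that equal numbers were paired across genotypes, and these correlations alone do not establish pairs. The replicate block was therefore only an alternative. All 40 genes are named, as are the 4 largest changes that passed in each further pathway list, the 2 largest that passed in each direction in each marker list, and the sex chromosome genes; exceptions are stated. Members and lists were chosen with earlier results of these data known. Alternatives were quantile normalization, centring, filters, averaging of probe sets, other moderation, thresholds and leaving out each array.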

Additional observations from a re-analysis of the deposited data

How the results depend on the processing

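With the replicate number as a block, 16 FGF system genes changed, 11 higher and 5 lower in knock-out cells, and no call of the 40 genes differed. In all, 7000 genes changed with the block, against 6296 without it. Whether the numbers mark pairs is not known. Quantile normalization, the mean of probe sets and an intensity trend with robust settings also gave 16; centring gave 14, the genes above the 25th percentile 15 and an adjusted p under 0.01 14. Leaving out 1 array at a time gave 14 to 16 FGF system genes, 9 to 11 of them higher and 5 lower, and 5485 to 5803 genes in all. Among the 9969 genes above the median, where 14 of the 40 were tested, 10 changed and 6 were higher, since fewer genes were tested. Without moderated variances 12 changed, 7 of them higher, and 4451 genes in all. Without chromosomes X and Y, added after seeing the data, 3 were lower, since Fgf13 and Spry3 were left out. With a 2-fold threshold 1061 genes changed, 8 of the FGF system, 3 of them higher. Of 232 values of the 16 changed genes under other settings, 219 kept call and direction, 13 lost the call (Fgf9, Spred1, Spry1 and Spry4) and none changed sign; the cause was not tested. Signs turned only for genes near 0 that did not pass. Quantile normalization gave 0.006 for Fgfr1. Centring gave −0.013 for Fgf1, −0.0099 for Fgf6, −0.002 for Fgf8, −0.0007 for Fgf16 and −0.004 for Fgfr4. The second probe set of Etv1, added after seeing the data, gave 0.057. Leaving out 1 array gave log2 fold changes of −0.016 to 0.063 for Fgf1, −0.034 to 0.078 for Fgf6, −0.059 to 0.022 for Fgf3, −0.028 to 0.10 for Fgf8, −0.036 to 0.025 for Fgf20, −0.017 to 0.10 for Fgf21, −0.031 to 0.026 for Fgf23, −0.036 to 0.028 for Fgfr1, −0.067 to 0.12 for Fgfr4 and −0.18 to 0.046 for Dusp4. Background signal limits the folds of Fgf13, Spry2, Spry4, Fgf9 and Fgf14.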
